A study of Mus musculus with 25 samples.

Results

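Transplanted 2208L mouse mammary tumors from vehicle-treated hosts (3 libraries) were compared with T11 mammary tumors whose libraries carry the vehicle label (3 libraries), 6 of the 25 libraries of the series. These 6 were chosen by their labels alone, and no measured value entered the choice. Both lines were grown in the mammary gland of Balb/c females that were 4 to 5 weeks old at transplant, the hosts received vehicle daily until the tumors were collected, and polyadenylated RNA was read from whole tumors. The labels call 2208L a responder and T11 a nonresponder to H3B-8800, a small molecule that binds the SF3B complex of the spliceosome, and they give no tumor genotype and no processing batch for either line. Line and any batch of processing therefore cannot be told apart. The replicates are described as separate tumors. The p-values rest on the spread between tumors within groups, estimated jointly over all 25 libraries, which include other lines and treatments. That spread is therefore not the spread of 2208L and T11 tumors alone, and it does not measure differences between independent tumor lines. Beside the vehicle-labelled T11 libraries, each result was set against the 3 T11 libraries labelled H3B-8800, from the same host strain, dosed daily with H3B-8800 per their label. The average over both labels also used the 3 2208L libraries labelled H3B-8800. It can therefore lie outside the values of the 2 single-label comparisons. The 2 single-label comparisons share the 2208L vehicle libraries and are not independent of each other.

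The T11 labels are in doubt in these data. Intronic reads made up 7.90, 10.1 and 10.4 percent of all reads counted in the 2208L vehicle libraries, 11.5, 18.1 and 13.6 percent in the T11 libraries labelled vehicle and 9.33, 10.2 and 11.96 percent in those labelled H3B-8800. In 2208L every library labelled H3B-8800 was above every vehicle library, with 14.9, 13.8 and 13.3 percent. In T11, 2 of the 3 libraries labelled H3B-8800 were below all those labelled vehicle, and the highest of the 6 was labelled vehicle. Spliced reads per library, in units of 1000000, ranged from 9.82 to 11.04 in 2208L vehicle, 10.6 to 16.4 in T11 labelled vehicle and 11.7 to 19.7 in T11 labelled H3B-8800. CPM is the number of reads of a gene per 1000000 spliced reads of the library, with library size scaled by TMM. Summed levels of 32 skeletal muscle genes were 6538, 119.8 and 57.2 CPM in 2208L vehicle and 487, 282 and 10291 in T11 labelled vehicle. In T11 labelled H3B-8800 they were 282, 1251 and 234 CPM. Thus 2208L replicate 1 and T11 labelled vehicle replicate 3 were rich in muscle RNA. Replicate 2 of T11 labelled H3B-8800 was rich in lymphocyte RNA, with 0.472, 37.3 and 0.138 CPM of the B cell gene Cd79a over the 3 libraries of its group. In 2202 genes with at least 12 introns, the introns were also split in 3 parts from 5′ to 3′, and spliced reads over the 5′ part were divided by those over the 3′ part. The median ratio was 0.447, 0.619 and 0.554 in 2208L vehicle, 0.384, 0.713 and 0.758 in T11 labelled vehicle and 0.635, 0.635 and 0.707 in T11 labelled H3B-8800. All 2208L vehicle libraries were thus below all T11 libraries except replicate 1 of T11 labelled vehicle, and the part of this ratio in the differences below was not tested.

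Mammary epithelium is held together by adherens, tight and desmosomal junctions, and its luminal cells express simple keratins and the milk genes. Cells that pass through an epithelial to mesenchymal transition lose these proteins, and the factors Zeb1, Zeb2, Snai1 and Snai2 are known to repress junction genes by binding E-box motifs in their promoters. T11 is known as a claudin-low, mesenchymal mammary tumor model, and 2208L as a model whose tumors draw in neutrophils. Both are known as lines derived from Trp53-null mammary tissue.

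Of 13001 genes tested, 3000 were higher in 2208L vehicle than in T11 labelled vehicle (23.1 percent of all genes) and 2929 were lower (22.5 percent), at an adjusted p under 0.05 in edgeR's quasi-likelihood test with Benjamini-Hochberg adjustment. Against T11 labelled H3B-8800, 2628 genes were higher (20.2 percent) and 2406 lower (18.5 percent). With both labels averaged, 3450 were higher (26.5 percent) and 3422 lower (26.3 percent). A total of 2020 genes were higher against both labels (15.5 percent) and 1894 were lower against both (14.6 percent). In 2477 genes all 3 2208L vehicle libraries were above all 6 T11 libraries (19.1 percent), and in 2215 they were below all 6 (17 percent). The median log2 difference over all genes was -0.02 against T11 labelled vehicle and 0 against T11 labelled H3B-8800. The counts called in each list below are to be read beside these percentages of all genes. A log2 difference given alone below is the one against T11 labelled vehicle. Gene levels are spliced reads summed over a gene's introns, in CPM, so genes without introns have no value and levels of different genes are compared only per intron.

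Epithelial junction genes were higher in 2208L almost throughout, and not all were near 0 in T11. Of 43 junction and surface genes listed, 37 were tested, and 36 of these were higher in 2208L vehicle than in T11 labelled vehicle and none was lower. Against T11 labelled H3B-8800, 35 were higher and none lower. The median log2 difference over the 37 genes was 6.32 against T11 labelled vehicle and 5.75 against T11 labelled H3B-8800, or 5.28 and 5.56 with bounds. The values with bounds put each member that had 0 to 3 reads in 1 line at its lower bound or its ratio of reads. In the averaged comparison 36 were higher and none lower, with a median of 5.61. The summed level of the list was 6167, 4987 and 5822 CPM in 2208L vehicle, 308, 424 and 409 in T11 labelled vehicle and 349, 395 and 387 in T11 labelled H3B-8800. Epcam, a surface adhesion protein of epithelium on chromosome 17, had 1441, 1072 and 1321 CPM in 2208L vehicle, against 3.32, 6.49 and 3.09 in T11 labelled vehicle and 3.85, 3.87 and 8.07 in T11 labelled H3B-8800. No 2208L library came near a T11 library for this gene, and the log2 difference was 8.19 ± 0.59 (SE, n = 3 each, adjusted p = 4.36e-10). Cdh1, which encodes E-cadherin, had 186, 163 and 182 CPM in 2208L vehicle, against 0, 0.125 and 0.504 in T11 labelled vehicle and 0.157, 0.662 and 0.599 in T11 labelled H3B-8800. The gene was close to 0 in every T11 library, with 9 reads over the 3 labelled vehicle together, and its log2 difference was 9.52 ± 0.46 (adjusted p = 1e-12).

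The tight junction gene Cldn7 had 217, 124 and 154 CPM in 2208L vehicle, against 0.115, 0 and 0.360 in T11 labelled vehicle and 0.0786, 0.102 and 0.184 in T11 labelled H3B-8800, a log2 difference of 9.96 ± 0.50 against the first label. St14, which encodes the membrane protease matriptase, had 406, 362 and 389 CPM in 2208L vehicle, against 0.229, 0.748 and 0.576 in T11 labelled vehicle and 1.10, 0.967 and 1.34 in T11 labelled H3B-8800. Its inhibitor Spint1 differed in the same direction, with 262, 184 and 207 CPM in 2208L vehicle, 2.17, 2.62 and 1.80 in T11 labelled vehicle and 1.81, 1.63 and 2.08 in T11 labelled H3B-8800. For Cldn7, St14 and Spint1 every 2208L library was above every T11 library. F11r, a junctional adhesion molecule that blood vessels and leukocytes also carry, had a measurable level in T11, with 354, 322 and 404 CPM in 2208L vehicle, 15.7, 26.8 and 18.4 in T11 labelled vehicle and 15.9, 24.5 and 21.5 in T11 labelled H3B-8800. The 2 exceptions were Cldn12 and Col17a1. Cldn12, a claudin, had 6.35, 5.29 and 4.02 CPM in 2208L vehicle, 2.86, 4.99 and 5.97 in T11 labelled vehicle and 5.42, 4.53 and 6.55 in T11 labelled H3B-8800, and the groups overlapped (adjusted p = 0.715 and 0.887 against the 2 labels). Col17a1, a collagen of the hemidesmosome, was called against T11 labelled vehicle (adjusted p = 0.0348) and not against T11 labelled H3B-8800 (adjusted p = 0.0982), and the first call was lost without 2208L replicate 3 or without replicate 1 or 2 of T11 labelled vehicle.

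The promoters of 3 junction genes and of Vim are shown as examples chosen by hand, and they do not stand for their lists. The E-box looked for is CAGGTG, or CACCTG on the other strand. No promoter of Cdh1, Esrp1, Esrp2, Grhl2, Erbb3 or Ovol1 was at hand. Each runs from 250 bases before to 50 bases after a RefSeq transcript start in GRCm38.p6, 5′ to 3′ on the gene's strand, with the E-boxes in capitals. The Epcam window is chr17:87635729-87636028 on the forward strand with 2 copies, the Crb3 window chr17:57061981-57062280 on the forward strand with 4, the Lsr window chr7:30973420-30973719 on the reverse strand with 4, and the Vim window chr2:13574061-13574360 on the forward strand with 0.
Epcam: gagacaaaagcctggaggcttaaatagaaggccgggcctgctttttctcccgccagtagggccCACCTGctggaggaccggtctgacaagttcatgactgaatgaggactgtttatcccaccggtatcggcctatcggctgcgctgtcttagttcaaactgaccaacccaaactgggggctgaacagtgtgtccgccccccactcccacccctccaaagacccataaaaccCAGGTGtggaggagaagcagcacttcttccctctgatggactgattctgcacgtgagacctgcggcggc
Crb3: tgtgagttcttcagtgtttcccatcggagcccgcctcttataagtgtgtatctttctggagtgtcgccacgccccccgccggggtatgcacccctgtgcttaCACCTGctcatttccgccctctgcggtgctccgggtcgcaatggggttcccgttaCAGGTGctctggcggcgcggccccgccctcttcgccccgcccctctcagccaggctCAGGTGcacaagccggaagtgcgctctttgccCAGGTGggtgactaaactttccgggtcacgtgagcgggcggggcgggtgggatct
Lsr: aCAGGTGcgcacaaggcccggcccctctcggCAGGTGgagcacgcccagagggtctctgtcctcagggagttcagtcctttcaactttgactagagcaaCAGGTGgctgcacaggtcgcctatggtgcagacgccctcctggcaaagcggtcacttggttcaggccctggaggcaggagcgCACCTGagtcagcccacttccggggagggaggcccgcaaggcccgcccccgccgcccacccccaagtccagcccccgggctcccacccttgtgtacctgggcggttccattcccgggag
Vim: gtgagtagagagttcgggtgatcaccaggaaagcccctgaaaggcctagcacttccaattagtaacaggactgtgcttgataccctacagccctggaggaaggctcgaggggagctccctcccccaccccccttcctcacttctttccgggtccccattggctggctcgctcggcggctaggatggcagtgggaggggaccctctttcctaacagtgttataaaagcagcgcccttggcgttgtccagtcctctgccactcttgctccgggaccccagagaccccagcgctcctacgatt
Among tested junction genes with a promoter in the table, 13 of 20 held the motif on either strand (65 percent), as did 13 of 22 luminal genes (59.1 percent) and 2 of 19 mesenchymal genes (10.5 percent). The share was 18.3 percent over 9918 tested genes with 1 promoter each and 20.2 percent over all 32851 promoters of the table. All 3 junction promoters shown hold the motif, which not all promoters of their list do. A motif match describes these letters only, and binding was not measured. Whether the motif bears on the levels was not tested. Crb3, a polarity protein of the apical membrane, had 8.87, 5.38 and 5.43 CPM in 2208L vehicle, no read in T11 labelled vehicle and 0, 0 and 0.0461 in T11 labelled H3B-8800. Lsr, a protein of tricellular junctions, had 214, 141 and 169 CPM in 2208L vehicle, 0.343, 0.624 and 0.360 in T11 labelled vehicle and 0, 1.02 and 0.784 in T11 labelled H3B-8800.

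**Figure D1:**
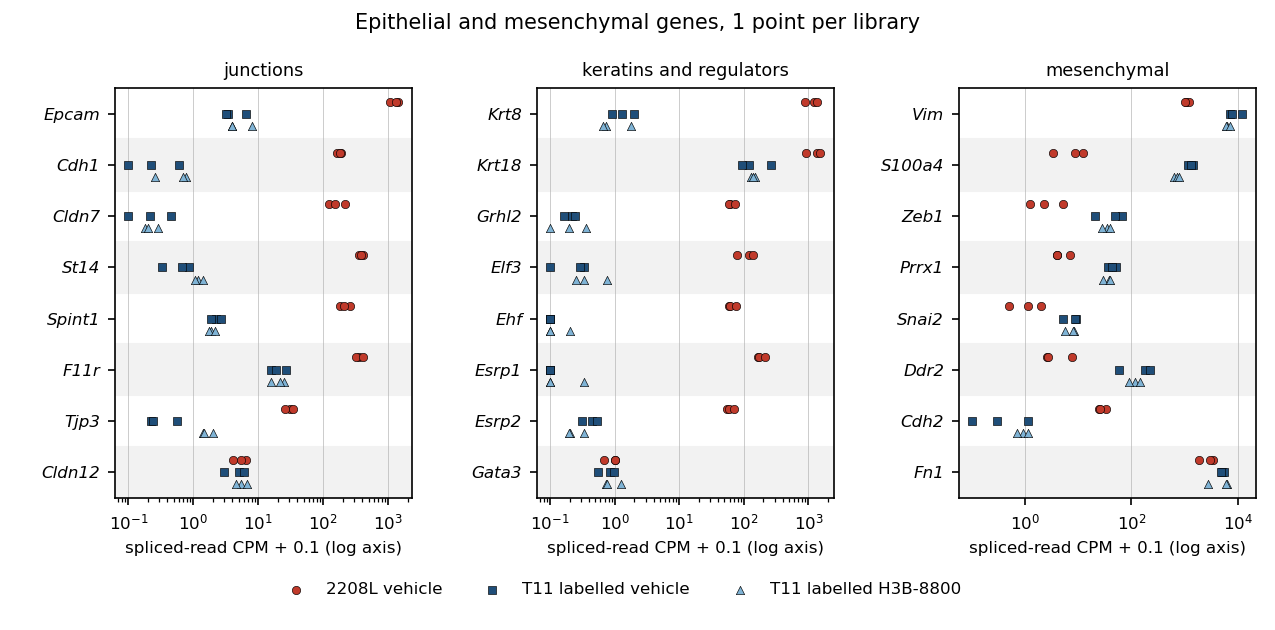
Spliced-read CPM plus 0.1 on a log axis for 24 genes, 1 point per library, with 2208L vehicle as circles, T11 labelled vehicle as squares and T11 labelled H3B-8800 as triangles. The 2208L points of Epcam lie between 1072 and 1441 CPM and all T11 points between 3.09 and 8.07 CPM, while the groups overlap for Cldn12 and Gata3 and stand the other way round for Vim.

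Luminal keratins and luminal transcription factors followed the junction genes. Of 33 tested luminal genes, 28 were higher in 2208L vehicle than in T11 labelled vehicle and 1 was lower, and the same number, 28, were higher against T11 labelled H3B-8800, where none was lower. The list's median log2 difference was 7.58 against T11 labelled vehicle and 8.11 against T11 labelled H3B-8800, or 6.36 and 7.96 with bounds. Averaged, the list had 28 higher and 1 lower (median 7.54). Krt8, a simple keratin, had 1201, 898 and 1334 CPM in 2208L vehicle, against 0.801, 1.19 and 1.87 in T11 labelled vehicle and 0.629, 0.560 and 1.66 in T11 labelled H3B-8800 (log2 difference 9.75 ± 0.47 and 10.17 ± 0.48). Its partner Krt18 was far from 0 in T11, with 1374, 926 and 1532 CPM in 2208L vehicle, 268, 119.7 and 93.1 in T11 labelled vehicle and 149, 131 and 138 in T11 labelled H3B-8800. The 2 keratins, which form filaments as a pair, stood at a similar level per intron in 2208L (means of 143 and 213 CPM per intron) and at unlike levels in T11 labelled vehicle (0.161 and 26.7 CPM per intron).

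Grhl2, a grainyhead factor that maintains epithelial junction genes, had 61.5, 58.03 and 72.7 CPM in 2208L vehicle, 0.115, 0.0624 and 0.144 in T11 labelled vehicle and 0, 0.255 and 0.0922 in T11 labelled H3B-8800 (log2 difference 9.14 ± 0.50). The ETS factor Elf3 had 121, 77.2 and 138 CPM in 2208L vehicle, 0.229, 0.187 and 0 in T11 labelled vehicle and 0.236, 0.153 and 0.646 in T11 labelled H3B-8800. Its relative Ehf had 59.5, 60.3 and 76.6 CPM in 2208L vehicle and no read in T11 labelled vehicle, at least 839.9-fold higher against a floor of 3 reads over those 3 libraries. All of these factors separated the 2 lines without overlap. Ovol1, a repressor of Zeb1 in other epithelia, had 2.82, 1.01 and 4.12 CPM in 2208L vehicle and no read in any T11 library. Tfap2c, an AP-2 factor of luminal cells, had 219.5, 168 and 249.9 CPM in 2208L vehicle and no read in T11 labelled vehicle. Sox10, a factor of mammary progenitor cells and of neural crest, had 76.2, 72.6 and 91 CPM in 2208L vehicle and 1 read in T11 labelled vehicle.

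Some luminal genes did not separate the lines. Gata3, the factor of mature luminal cells, was low in both, with 0.907, 0.588 and 0.905 CPM in 2208L vehicle, 0.458, 0.748 and 0.863 in T11 labelled vehicle and 0.629, 0.662 and 1.15 in T11 labelled H3B-8800 (adjusted p = 0.835 and 0.910). Esr1, the estrogen receptor, was at 0.101, 0.504 and 0.302 CPM in 2208L vehicle, 0.229, 0.748 and 2.16 in T11 labelled vehicle and 0.786, 0.815 and 1.20 in T11 labelled H3B-8800. Krt19 and Klf5 also overlapped between the groups. Areg, a ligand of the epidermal growth factor receptor, was the 1 luminal gene called lower in 2208L vehicle against T11 labelled vehicle (log2 difference -2.86 ± 0.73, adjusted p = 0.00280), and it was not called against T11 labelled H3B-8800 (adjusted p = 0.541).

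Basal markers gave a mixed picture. Of 20 tested, 7 were higher and 3 lower in 2208L vehicle against T11 labelled vehicle, and 7 were higher and 2 lower against T11 labelled H3B-8800. Both labels averaged gave 10 higher and 2 lower (median 1.66). The keratins Krt14, Krt15 and Krt17 were higher in 2208L. Krt14 had 10.2, 9.24 and 6.13 CPM in 2208L vehicle, 0.687, 0 and 0.0719 in T11 labelled vehicle and 0, 0 and 0.0461 in T11 labelled H3B-8800. Krt15 had 25.3, 9.82 and 19.3 CPM in 2208L vehicle and no read in any T11 library. Krt5, the usual partner of Krt14, had no read in any of these 9 libraries. The integrin Itga6 was higher in 2208L, with 326, 362 and 424 CPM in 2208L vehicle, 19.7, 69.8 and 49.3 in T11 labelled vehicle and 83.9, 67.04 and 113 in T11 labelled H3B-8800. The smooth muscle actin gene Acta2, made by myoepithelium and by fibroblasts, had 226, 326 and 124 CPM in 2208L vehicle, 209, 200.2 and 291 in T11 labelled vehicle and 269.8, 306 and 191 in T11 labelled H3B-8800. It was not called (adjusted p = 0.934 and 0.747).

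The 2 best known regulators of epithelial splicing were near 0 in T11. Esrp1, an RNA-binding protein that sets epithelial exon choice, had 164, 169 and 212 CPM in 2208L vehicle and no read in T11 labelled vehicle, at least 2333-fold higher against the floor of 3 reads over the group. It had 0, 0 and 0.231 CPM in T11 labelled H3B-8800. Esrp2, its paralog, had 55.2, 58.6 and 70.9 CPM in 2208L vehicle, 0.343, 0.436 and 0.216 in T11 labelled vehicle and 0.236, 0.102 and 0.0922 in T11 labelled H3B-8800. Rbm47, another epithelial splicing factor, had 7.66, 9.66 and 9.95 CPM in 2208L vehicle, 0, 1.37 and 1.08 in T11 labelled vehicle and 0.472, 0.815 and 0.369 in T11 labelled H3B-8800. All 3 genes stood higher in every 2208L library than in any T11 library. Ptbp2, a splicing repressor best known in neurons, was lower in 2208L, with 17.8, 21.4 and 23.2 CPM in 2208L vehicle, 35.6, 58.6 and 64.5 in T11 labelled vehicle and 52.5, 44.9 and 50.8 in T11 labelled H3B-8800. Of the 23 tested regulators, 5 were higher and 6 lower against T11 labelled vehicle, and 4 higher and 5 lower against T11 labelled H3B-8800, shares close to those of all genes. Averaging both labels gave 7 higher and 8 lower, with a median log2 difference of -0.25. One library mattered here, since the lower count against T11 labelled vehicle was 3 without T11 labelled vehicle replicate 2.

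Mesenchymal genes stood the other way. Of 36 tested transition factors and markers, 24 were lower in 2208L vehicle than in T11 labelled vehicle and 3 were higher, and 19 were lower and 3 higher against T11 labelled H3B-8800. Over all members the median log2 difference was -1.33 against T11 labelled vehicle and -1.27 against T11 labelled H3B-8800. In the averaged comparison 4 were higher and 24 lower, with a median of -1.04. Vim, the intermediate filament of mesenchymal cells, had 1087, 1218 and 1036 CPM in 2208L vehicle, against 12279, 7222 and 7791 in T11 labelled vehicle and 6377, 6086 and 7286 in T11 labelled H3B-8800. All 3 2208L libraries were below all 6 T11 libraries, and the log2 difference was -3.03 ± 0.25 against T11 labelled vehicle (adjusted p = 3.62e-09). S100a4, a calcium-binding protein of fibroblasts and motile cells, had 11.9, 8.40 and 3.22 CPM in 2208L vehicle, 1429.5, 1182 and 1343 in T11 labelled vehicle and 639.5, 716 and 778 in T11 labelled H3B-8800, a log2 difference of -7.39 ± 0.45. Zeb1, a repressor of E-cadherin, had 2.12, 5.04 and 1.11 CPM in 2208L vehicle, 20.8, 67.3 and 49.1 in T11 labelled vehicle and 34.3, 27.3 and 39.98 in T11 labelled H3B-8800. Replicate 2 was the highest 2208L library for Zeb1, and it was below every T11 library.

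Snai2 and Prrx1, 2 further transition factors, were also lower. Snai2 had 1.01, 1.85 and 0.402 CPM in 2208L vehicle, 8.93, 8.61 and 5.04 in T11 labelled vehicle and 8.25, 5.40 and 7.88 in T11 labelled H3B-8800 (log2 difference -2.76 ± 0.58). Prrx1 had 3.83, 6.80 and 3.82 CPM in 2208L vehicle, 35.7, 50.9 and 42.7 in T11 labelled vehicle and 37.96, 28.8 and 38.9 in T11 labelled H3B-8800. Both sets of 2208L values lay below all T11 values. Zeb2 was called against both labels (adjusted p = 0.00918 and 0.00817) although its groups overlapped, and the call against either label was lost without 2208L replicate 3, as was that against T11 labelled vehicle without replicate 3 of that label. Twist1 was called against T11 labelled vehicle (adjusted p = 0.0127), where the call was lost without replicate 1 of that label, and not against T11 labelled H3B-8800 (adjusted p = 0.248). The collagen receptor Ddr2 had 2.52, 7.47 and 2.61 CPM in 2208L vehicle, 57.7, 181 and 219 in T11 labelled vehicle and 115, 91.4 and 142 in T11 labelled H3B-8800. No 2208L library reached a T11 library for Ddr2. Fn1, the fibronectin gene, was not called, with 1846, 3401 and 2956 CPM in 2208L vehicle, 5035, 5501 and 4889 in T11 labelled vehicle and 6377, 2753 and 6161 in T11 labelled H3B-8800 (adjusted p = 0.0726 and 0.0863).

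The 3 mesenchymal list members that were higher in 2208L were Cdh2, Nt5e and Itgb3, against both labels. Cdh2, which encodes N-cadherin, had 33.8, 24.7 and 25.3 CPM in 2208L vehicle, 0, 0.187 and 1.01 in T11 labelled vehicle and 0.786, 1.02 and 0.599 in T11 labelled H3B-8800. The 2208L tumors thus held reads of both cadherins, at means of 11.8 CPM per intron for Cdh1 and 1.86 CPM per intron for Cdh2, while both were near 0 in T11. Nt5e, the ectonucleotidase CD73, had 99.4, 74.6 and 49.7 CPM in 2208L vehicle, 8.59, 27.9 and 16.6 in T11 labelled vehicle and 15.9, 14.2 and 17.8 in T11 labelled H3B-8800. Itgb3, an integrin subunit, had 37.3, 57.7 and 71.5 CPM in 2208L vehicle, 15.1, 48.2 and 18.4 in T11 labelled vehicle and 25.5, 17.7 and 29.6 in T11 labelled H3B-8800. Its groups overlapped, and its call against T11 labelled vehicle was lost without 2208L replicate 2 or 3 or replicate 1 or 3 of that label, and against T11 labelled H3B-8800 without 2208L replicate 2 or 3 or replicate 1 or 2 of that label.

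The matrix genes that were called were in the main lower in 2208L. Of 36 tested collagen and matrix genes, 20 were lower and 2 higher against T11 labelled vehicle, and 16 lower and 3 higher against T11 labelled H3B-8800. Their median log2 difference was -1.60 against T11 labelled vehicle and -0.94 against T11 labelled H3B-8800. Averaged, the list had 4 higher and 21 lower (median -1.30). Among these, the higher count against T11 labelled vehicle was 5 without T11 labelled vehicle replicate 3 or both muscle-rich libraries together. Bulk tumors cannot tell fewer cells of a type from less RNA per cell, here or in any list below. Pcolce, an enhancer of collagen processing, had 81.8, 95.3 and 35.2 CPM in 2208L vehicle, 751, 681 and 651 in T11 labelled vehicle and 654, 589 and 564 in T11 labelled H3B-8800. Col6a1 had 154, 634 and 116 CPM in 2208L vehicle, 1604, 2928 and 2358 in T11 labelled vehicle and 1696, 1506 and 2254 in T11 labelled H3B-8800. Replicate 2 was the highest 2208L library for Col6a1, Col6a2 and Col5a1, and it still lay below all T11 libraries. Col1a1, the main fibrillar collagen, was not called, with 1431, 3491 and 757 CPM in 2208L vehicle, 1781, 4002 and 4284 in T11 labelled vehicle and 4842, 4092 and 4604 in T11 labelled H3B-8800 (adjusted p = 0.211 and 0.0669). Vessel genes had no common direction: of 28 tested, 4 were higher and 7 lower against T11 labelled vehicle and 4 higher and 2 lower against T11 labelled H3B-8800. Both labels averaged gave 3 higher and 6 lower (median -0.21). These counts moved with single libraries: the higher count against T11 labelled vehicle was 2 without 2208L replicate 2 or T11 labelled vehicle replicate 1 and the lower count against T11 labelled vehicle was 3 without 2208L replicate 1 or 3 or T11 labelled vehicle replicate 2 or both muscle-rich libraries together and 14 without 2208L replicate 2. With T11 labelled H3B-8800 the higher count was 2 without 2208L replicate 2 or T11 labelled H3B-8800 replicate 2 or 3 and the lower count was 10 without 2208L replicate 2. Eng, a receptor of vessel cells that other stroma also expresses, was higher in 2208L, with 258, 232 and 221 CPM in 2208L vehicle, 61.9, 63.4 and 59.2 in T11 labelled vehicle and 62.8, 91.7 and 66.2 in T11 labelled H3B-8800 (log2 difference 1.95 ± 0.20).

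**Figure D2:**
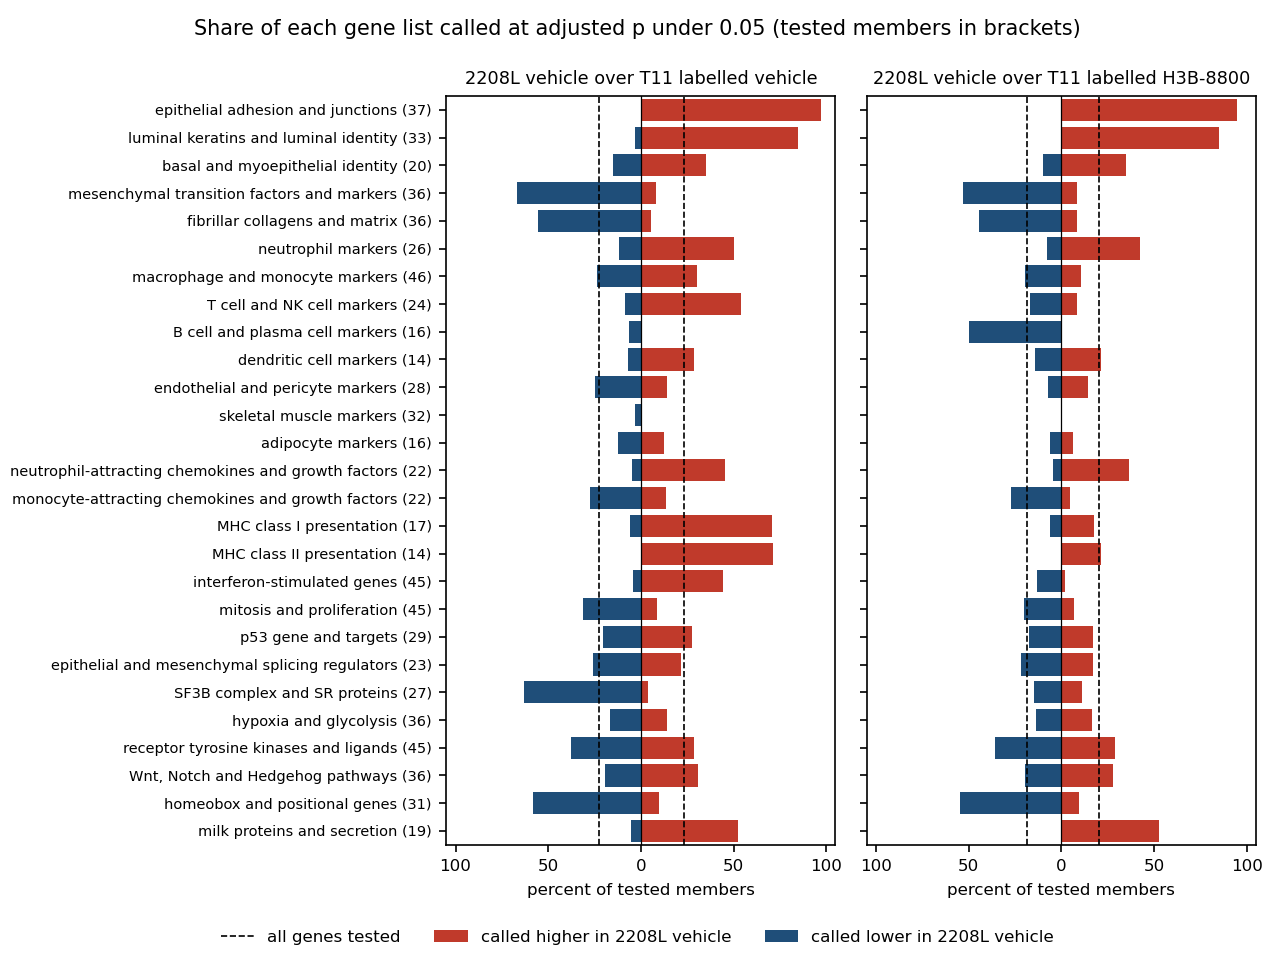
Percent of the tested members of each of 27 gene lists called higher (right) or lower (left) in 2208L vehicle, against T11 labelled vehicle in the left panel and T11 labelled H3B-8800 in the right panel, with dashed lines at the percent over all genes. Junction, luminal and milk genes extend to the right and mesenchymal, matrix and homeobox genes to the left in both panels, while the antigen presentation, interferon, T cell and SF3B lists differ between panels.

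The milk genes that were called were higher in 2208L, with 1 exception. Of 19 tested milk and secretion genes, 10 were higher and 1 lower against T11 labelled vehicle, and 10 were higher and none lower against T11 labelled H3B-8800. Their median log2 difference was 3.10 against T11 labelled vehicle and 3.32 against T11 labelled H3B-8800, or 2.95 and 3.32 with bounds. Averaging both labels gave 12 higher and none lower, with a median log2 difference of 4.24. The lower one was Spp1, which macrophages also make, and it was no longer called without replicate 1 or replicate 3 of 2208L or without T11 labelled vehicle replicate 1. Trf, which encodes the iron carrier transferrin and is made by the lactating gland, had 16013, 18785 and 24796 CPM in 2208L vehicle, against 10.5, 21.9 and 43.8 in T11 labelled vehicle and 12.7, 49.4 and 27.02 in T11 labelled H3B-8800. In 2208L it stood at a mean of 1242 CPM per intron, and the log2 difference from T11 labelled vehicle was 9.60 ± 0.62 (adjusted p = 9.26e-11). Csn3, a casein, had 121, 427 and 812 CPM in 2208L vehicle, 0, 0 and 0.288 in T11 labelled vehicle and 0.786, 0.407 and 0.461 in T11 labelled H3B-8800. Its 2208L libraries were widely spread, and all were above every T11 library. Csn1s1, another casein, had 223, 169 and 164 CPM in 2208L vehicle and no read in T11 labelled vehicle. Mfge8, a milk fat globule protein, had 1322, 1352 and 1798 CPM in 2208L vehicle, 251, 175 and 152 in T11 labelled vehicle and 148, 160.2 and 140.0 in T11 labelled H3B-8800. Stat5a, the factor through which prolactin drives milk genes, had 34.6, 34.8 and 47.7 CPM in 2208L vehicle, 2.63, 5.99 and 4.75 in T11 labelled vehicle and 7.78, 9.67 and 7.61 in T11 labelled H3B-8800 (log2 difference 3.10 ± 0.28). Both genes had a measurable level in T11 and were higher in every 2208L library. The milk fat genes Plin2 and Xdh were not called against either label.

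Receptor tyrosine kinases divided by receptor. Of 45 tested receptors and ligands, 13 were higher and 17 lower in 2208L vehicle against T11 labelled vehicle, and 13 higher and 16 lower against T11 labelled H3B-8800. In the averaged comparison 15 were higher and 18 lower, with a median of -0.18. Met, the hepatocyte growth factor receptor, had 4030.4, 3757 and 3981 CPM in 2208L vehicle, against 47.5, 78.4 and 155 in T11 labelled vehicle and 80.6, 83.3 and 91.2 in T11 labelled H3B-8800. The 2208L libraries lay close together, and the log2 difference was 5.39 ± 0.34 (adjusted p = 7.94e-11). Per intron, Met stood at 187 CPM in 2208L, above Krt8 at 143 CPM and Erbb2 at 5.19 CPM. Hgf, its ligand, was not called, with 0.202, 0.924 and 0.101 CPM in 2208L vehicle, 0.229, 0.0624 and 0.360 in T11 labelled vehicle and 0.472, 0.255 and 0.415 in T11 labelled H3B-8800.

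The partner receptors Erbb2 and Erbb3 were both higher in 2208L. Erbb2 had 118, 123 and 165 CPM in 2208L vehicle, 3.09, 3.18 and 3.02 in T11 labelled vehicle and 3.22, 6.01 and 3.87 in T11 labelled H3B-8800 (log2 difference 5.44 ± 0.25). Erbb3 had 217, 251 and 406 CPM in 2208L vehicle, 0, 2.06 and 0.719 in T11 labelled vehicle and 0.943, 1.53 and 0.968 in T11 labelled H3B-8800. The 2 lines did not overlap in either gene. Egfr, of the same family, was lower, with 1.81, 6.47 and 1.61 CPM in 2208L vehicle, 23.1, 32.7 and 28.6 in T11 labelled vehicle and 27.2, 19.4 and 30.2 in T11 labelled H3B-8800. Its ligand Tgfa was higher, with 8.16, 12.01 and 14.6 CPM in 2208L vehicle, 0.115, 0.249 and 0.576 in T11 labelled vehicle and 1.10, 0.356 and 0.231 in T11 labelled H3B-8800, and the ligands Ereg, Btc and Hbegf were lower against both labels. The platelet-derived growth factor receptors, which fibroblasts and pericytes carry, were lower. Pdgfra had 9.67, 21.9 and 4.53 CPM in 2208L vehicle, 160.1, 219 and 135 in T11 labelled vehicle and 94.1, 59.7 and 162 in T11 labelled H3B-8800. Pdgfrb had 36.97, 117 and 45.1 CPM in 2208L vehicle, 175, 392 and 212 in T11 labelled vehicle and 309, 190.0 and 398 in T11 labelled H3B-8800. Replicate 2 was the highest 2208L library for both. Axl, a receptor of mesenchymal cells and macrophages, had 36.9, 109 and 31.5 CPM in 2208L vehicle, 329, 532 and 543 in T11 labelled vehicle and 562, 519 and 626 in T11 labelled H3B-8800.

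**Figure D3:**
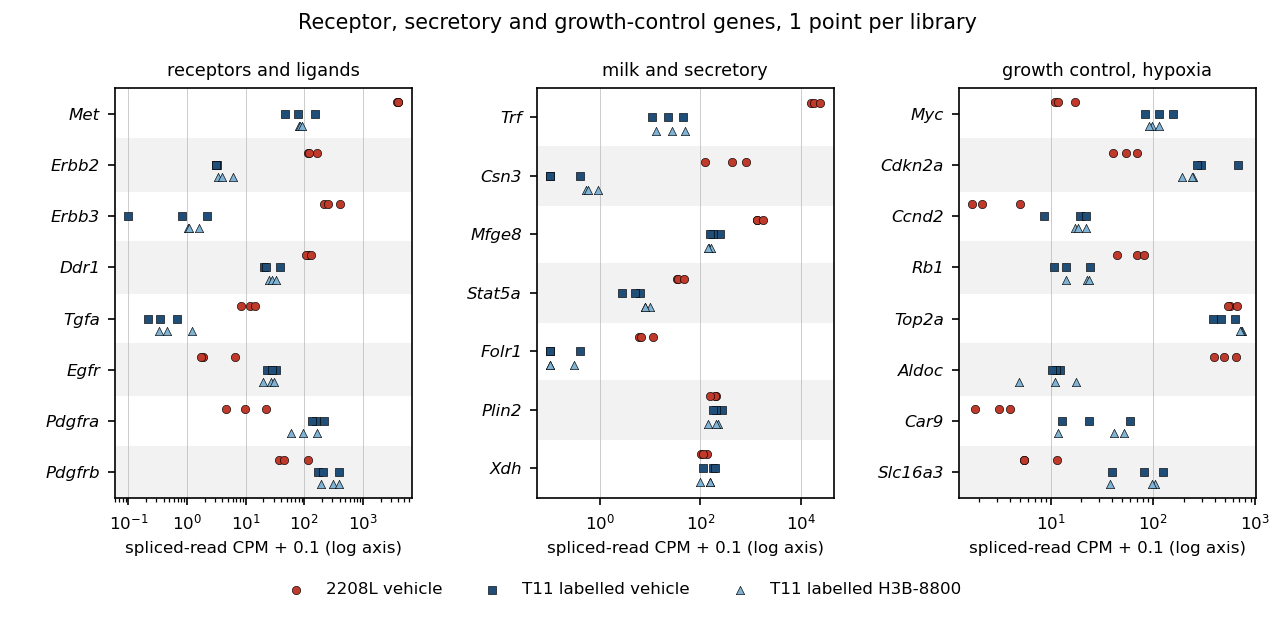
Spliced-read CPM plus 0.1 on a log axis for 23 receptor, milk and growth-control genes, 1 point per library, with 2208L vehicle as circles, T11 labelled vehicle as squares and T11 labelled H3B-8800 as triangles. Met lies between 3757 and 4030.4 CPM in 2208L and between 47.5 and 155 CPM in T11, and Myc between 11 and 17.2 CPM in 2208L and between 84.1 and 155 CPM in T11.

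Homeobox and positional genes were mostly lower in 2208L. Of 31 tested, 18 were lower and 3 higher against T11 labelled vehicle, and 17 lower and 3 higher against T11 labelled H3B-8800. Their median log2 difference was -2.42 against T11 labelled vehicle and -2.06 against T11 labelled H3B-8800, or -2.27 and -1.98 with bounds. Averaged, the list had 3 higher and 23 lower (median -2.62). Tbx3, a T-box factor of the mammary bud, had 0.806, 0.840 and 0.302 CPM in 2208L vehicle, 31.7, 38.04 and 34.1 in T11 labelled vehicle and 18.1, 17.8 and 29.97 in T11 labelled H3B-8800 (log2 difference -5.70 ± 0.69). No 2208L library reached 1 CPM of Tbx3. Hoxa9 had 1 read in the 2208L vehicle libraries together, against 4.46, 3.87 and 4.03 CPM in T11 labelled vehicle and 2.44, 2.80 and 3.27 CPM in T11 labelled H3B-8800. The 3 genes that were higher in 2208L were Tbx15, Meis3 and Hoxc9. Tbx15 had 24.6, 28.5 and 25.5 CPM in 2208L vehicle, 5.38, 7.98 and 10.9 in T11 labelled vehicle and 7.23, 6.36 and 7.33 in T11 labelled H3B-8800. When only introns that hold no annotated exon were summed, 22 homeobox genes were tested. Of these 7 were lower against T11 labelled vehicle and 10 against T11 labelled H3B-8800. Of all 12508 genes tested in that setting, 2631 and 2309 were lower. The lower share of the list against T11 labelled vehicle was thus smaller there than with all introns.

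Among Wnt, Notch and Hedgehog genes, 11 of 36 were higher and 7 lower against T11 labelled vehicle, and 10 higher and 7 lower against T11 labelled H3B-8800. Both labels averaged gave 15 higher and 9 lower (median 0.67). Leaving out 1 library, the higher count against T11 labelled vehicle was 7 without T11 labelled vehicle replicate 1 or 2 and the lower count against T11 labelled vehicle was 4 without 2208L replicate 3 or T11 labelled vehicle replicate 2 or both muscle-rich libraries together. Beside T11 labelled H3B-8800 the lower count was 3 without 2208L replicate 1 or T11 labelled H3B-8800 replicate 3. Dll1, a Notch ligand of mammary stem cells, had 44.2, 31.5 and 41.3 CPM in 2208L vehicle, 0.343, 0.748 and 1.37 in T11 labelled vehicle and 0.393, 1.78 and 1.25 in T11 labelled H3B-8800 (log2 difference 5.50 ± 0.48). The Wnt inhibitor Dkk2 had 1.91, 0.672 and 0.503 CPM in 2208L vehicle, 14.99, 11.9 and 30.3 in T11 labelled vehicle and 18.9, 15.02 and 15.9 in T11 labelled H3B-8800. Nkd1, an inhibitor that Wnt signalling itself induces, had 4.83, 5.38 and 4.62 CPM in 2208L vehicle, 0, 0.0624 and 0.216 in T11 labelled vehicle and 0.157, 0.764 and 0.323 in T11 labelled H3B-8800. None of these 3 genes overlapped between the lines. The receptors Notch1, Lrp6 and Smo were not called against either label.

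More neutrophil genes were called higher than lower in 2208L. Of 26 tested markers, 13 were higher and 3 lower against T11 labelled vehicle, and 11 higher and 2 lower against T11 labelled H3B-8800. The median log2 difference was 2.23 against T11 labelled vehicle and 1.35 against T11 labelled H3B-8800, or 2.23 and 1.35 with bounds. Averaging both labels gave 12 higher and 3 lower, with a median log2 difference of 1.83. Padi4, an enzyme of neutrophil extracellular traps, had 55.9, 49.7 and 40.9 CPM in 2208L vehicle, 0.343, 0.125 and 0.216 in T11 labelled vehicle and 0.0786, 0.509 and 0.231 in T11 labelled H3B-8800. Csf3r, the receptor for granulocyte colony-stimulating factor, had 16.6, 25.2 and 14.9 CPM in 2208L vehicle, 1.26, 1.06 and 2.37 in T11 labelled vehicle and 2.75, 4.99 and 4.47 in T11 labelled H3B-8800 (log2 difference 3.58 ± 0.34). S100a9, an abundant neutrophil protein, had 37.3, 50.5 and 36.7 CPM in 2208L vehicle, 10.99, 2.56 and 2.88 in T11 labelled vehicle and 5.58, 3.61 and 2.08 in T11 labelled H3B-8800. For Padi4, Csf3r and S100a9 all 2208L libraries were above all T11 libraries. Ltf, lactoferrin, had 81.3, 37.6 and 63.9 CPM in 2208L vehicle, 0.115, 0.187 and 0.0719 in T11 labelled vehicle and 0, 0.458 and 0.507 in T11 labelled H3B-8800, and mammary epithelium makes it too. The chemokine receptor Cxcr2 was low throughout, with 0.403, 1.93 and 0.905 CPM in 2208L vehicle, 0, 0.125 and 0.360 in T11 labelled vehicle and 0.0786, 0.204 and 0 in T11 labelled H3B-8800. Its call against T11 labelled vehicle (adjusted p = 0.0235) was lost without 2208L replicate 2 and without replicate 1 or 2 of that label.

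Mmp9, a matrix protease that neutrophils, macrophages and tumor cells make, was lower in 2208L, with 15.3, 42.5 and 8.55 CPM in 2208L vehicle, 1087, 1102 and 564 in T11 labelled vehicle and 948, 339.5 and 528 in T11 labelled H3B-8800 (log2 difference -5.37 ± 0.77). Mmp9 made up most of the summed neutrophil list in T11 labelled vehicle, and that sum was 322, 453 and 326 CPM in 2208L vehicle, 1287, 1276 and 796 in T11 labelled vehicle and 1111, 648 and 684 in T11 labelled H3B-8800. Clec4d was called lower against T11 labelled vehicle (adjusted p = 0.00645) and not against T11 labelled H3B-8800 (adjusted p = 0.529). Ptgs2, a prostaglandin synthase, was called lower against both labels with overlapping libraries, and the call against T11 labelled H3B-8800 was lost without 2208L replicate 1 or 3 or replicate 1 of that label. The integrin Itgam, shared by neutrophils and macrophages, was not called against either label.

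Cytokines and chemokines known to draw in or expand neutrophils were higher in 2208L in 10 of 22 cases and lower in 1 against T11 labelled vehicle, and higher in 8 and lower in 1 against T11 labelled H3B-8800. In the averaged comparison 15 were higher and 1 lower, with a median of 1.35. The chemokine Cxcl1 had 32.03, 34.7 and 45.5 CPM in 2208L vehicle, 1.60, 2.93 and 1.66 in T11 labelled vehicle and 3.06, 2.44 and 2.58 in T11 labelled H3B-8800 (log2 difference 4.15 ± 0.46 and 3.79 ± 0.45). Csf3, the growth factor of granulocytes, had 11.8, 10.8 and 8.95 CPM in 2208L vehicle, 0.229, 0 and 0.144 in T11 labelled vehicle and 0.0786, 0.204 and 0 in T11 labelled H3B-8800. Il1b had 32.4, 61.1 and 36.6 CPM in 2208L vehicle, 4.35, 2.18 and 3.09 in T11 labelled vehicle and 6.52, 6.52 and 6.04 in T11 labelled H3B-8800. In all 3 genes every 2208L library was above every T11 library. Il23a, a subunit of interleukin 23, had 23.4, 13.02 and 6.94 CPM in 2208L vehicle, 0.115, 0.0624 and 0 in T11 labelled vehicle and 0, 0.102 and 0 in T11 labelled H3B-8800. The receptor Il1r1, which fibroblasts carry, was the 1 lower gene, with 3.22, 11.9 and 1.21 CPM in 2208L vehicle, 20.3, 71.7 and 49.9 in T11 labelled vehicle and 22.8, 25.6 and 40.7 in T11 labelled H3B-8800. The list had a median log2 difference of 1.95 against T11 labelled vehicle and 0.40 against T11 labelled H3B-8800, or 1.95 and 0.40 with bounds. On leaving out libraries, the lower count against T11 labelled H3B-8800 was 3 without 2208L replicate 2. The receptors Il17ra and Il17rc were not called against either label.

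Of 22 chemokines and growth factors for monocytes, 6 were lower and 3 higher against T11 labelled vehicle, and 6 lower and 1 higher against T11 labelled H3B-8800. The median log2 difference was -0.45 against T11 labelled vehicle and -0.39 against T11 labelled H3B-8800. Averaged, with the 2208L libraries labelled H3B-8800 included, the list had 6 higher and 8 lower (median 0.36). Without 1 library, the higher count against T11 labelled vehicle was 5 without T11 labelled vehicle replicate 3 or both muscle-rich libraries together. With T11 labelled H3B-8800 the lower count was 3 without 2208L replicate 3. Csf1, the growth factor of macrophages, had 18.8, 28.3 and 17.2 CPM in 2208L vehicle, 35.5, 70.8 and 69.1 in T11 labelled vehicle and 70.3, 58.6 and 54.4 in T11 labelled H3B-8800. Ccl2, a monocyte chemokine, had 5.04, 17.4 and 5.33 CPM in 2208L vehicle, 12.1, 41.5 and 39.1 in T11 labelled vehicle and 58.2, 46.2 and 24.8 in T11 labelled H3B-8800, and its groups overlapped. The Ccl2 call against T11 labelled vehicle (adjusted p = 0.0190) was lost without 2208L replicate 1 or 3 or without replicate 2 or 3 of that label. Cxcl12, made by fibroblasts, had 18.4, 22.1 and 19.7 CPM in 2208L vehicle, 57.6, 81.8 and 80.3 in T11 labelled vehicle and 42.4, 44.6 and 49.8 in T11 labelled H3B-8800. All 2208L libraries were below all T11 libraries for Cxcl12.

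Macrophage genes were called in both directions, and the balance differed between the comparisons. Against T11 labelled vehicle 14 of 46 were higher and 11 lower, where 23.1 and 22.5 percent of all genes were. Against T11 labelled H3B-8800 5 were higher and 9 lower, where 20.2 and 18.5 percent of all genes were. The median log2 difference was -0.21 against T11 labelled vehicle and -0.44 against T11 labelled H3B-8800. Both labels averaged gave 20 higher and 4 lower (median 0.67). That average also holds the 2208L libraries labelled H3B-8800, so it is not a difference between the 2208L vehicle libraries and T11 alone. 2208L replicate 2 stood apart from the other 2208L libraries: the higher count against T11 labelled vehicle was 8 without 2208L replicate 2 and the lower count against T11 labelled vehicle was 4 without 2208L replicate 1 or 3 or both muscle-rich libraries together and 18 without 2208L replicate 2. Beside T11 labelled H3B-8800 the higher count was 3 without 2208L replicate 2 and the lower count was 4 without 2208L replicate 1, 5 without 2208L replicate 3 and 20 without 2208L replicate 2. Csf1r, the receptor of Csf1, had 70.8, 211 and 48.3 CPM in 2208L vehicle, 211, 250.4 and 235 in T11 labelled vehicle and 365, 256 and 304 in T11 labelled H3B-8800, with replicate 2 the highest of the 3 2208L libraries. Its call against T11 labelled vehicle (adjusted p = 0.0219) was lost without 2208L replicate 1 or 3 or without replicate 2 of that label. Cd68, a lysosomal protein of macrophages, had 23.3, 53.7 and 27.6 CPM in 2208L vehicle, 166, 135 and 113 in T11 labelled vehicle and 171, 119.9 and 129 in T11 labelled H3B-8800. Ctsk, a collagen-degrading cathepsin that fibroblasts and osteoclasts also make, had 25.99, 82.1 and 15.6 CPM in 2208L vehicle, 1309, 1310.2 and 696 in T11 labelled vehicle and 1354, 637 and 953 in T11 labelled H3B-8800 (log2 difference -4.74 ± 0.66). Cd68 and Ctsk were highest in replicate 2 among the 2208L libraries and below all T11 libraries. Cd14, a lipopolysaccharide co-receptor, was higher in 2208L, with 55.2, 69.95 and 76.9 CPM in 2208L vehicle, 4.01, 1.43 and 2.73 in T11 labelled vehicle and 2.44, 4.07 and 2.86 in T11 labelled H3B-8800 (log2 difference 4.66 ± 0.43). Itgax, an integrin of dendritic cells and some macrophages, had 43.2, 90.2 and 37.6 CPM in 2208L vehicle, 2.17, 4.62 and 4.89 in T11 labelled vehicle and 6.21, 9.98 and 19.5 in T11 labelled H3B-8800. Cd14 and Itgax separated the lines in the other direction. The complement genes C1qa and C1qc and the macrophage marker Adgre1 were not called against either label.

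**Figure D4:**
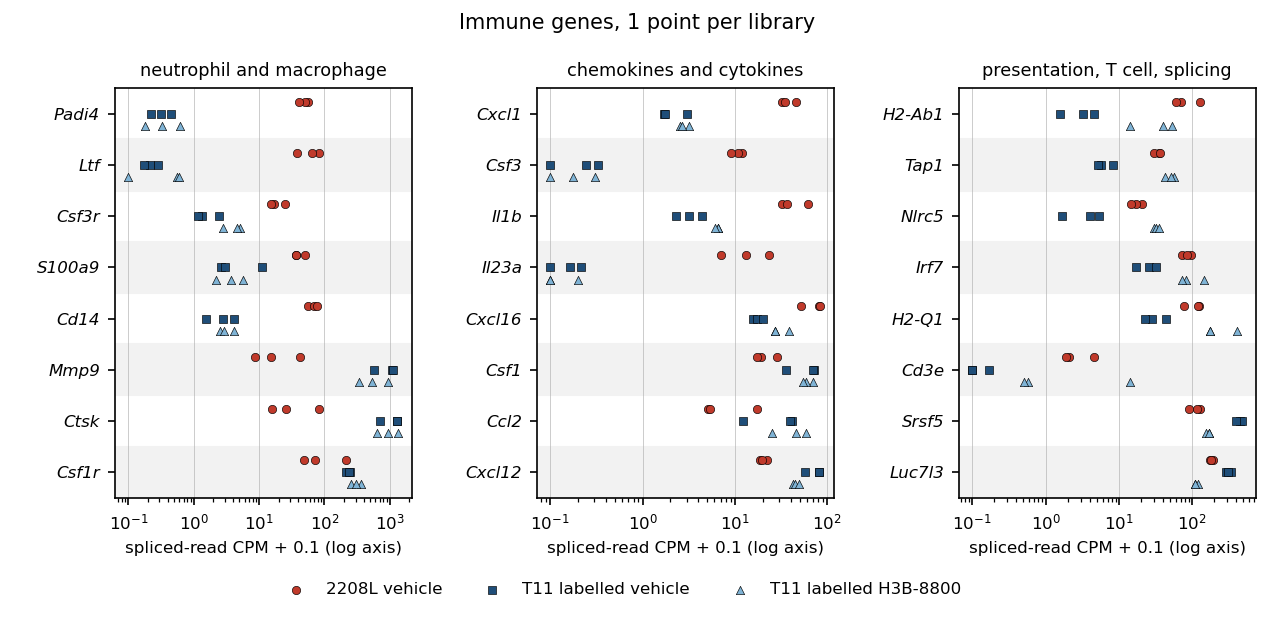
Spliced-read CPM plus 0.1 on a log axis for 24 immune and splicing genes, 1 point per library, with 2208L vehicle as circles, T11 labelled vehicle as squares and T11 labelled H3B-8800 as triangles. Csf3 and Cxcl1 stand above all T11 points, while for Tap1 the 2208L points (29.8 to 36.8 CPM) lie above the squares (5.11 to 8.35 CPM) and below the triangles (42.7 to 56.3 CPM).

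Antigen presentation and interferon genes gave an answer that depended on the T11 label. Of 17 tested class I genes, 12 were higher and 1 lower against T11 labelled vehicle, and 3 higher and 1 lower against T11 labelled H3B-8800. Averaging both labels gave 9 higher and 1 lower, with a median log2 difference of 0.57. For these, the higher count against T11 labelled vehicle was 7 without 2208L replicate 1. For T11 labelled H3B-8800 the higher count was 1 without 2208L replicate 1. Tap1, the peptide transporter, had 35.2, 29.8 and 36.8 CPM in 2208L vehicle, 5.61, 5.11 and 8.35 in T11 labelled vehicle and 56.3, 42.7 and 51.1 in T11 labelled H3B-8800. The 2208L libraries thus lay above all libraries of the first T11 label and below all of the second, with the second difference not called (adjusted p = 0.0861). H2-T23 and Erap1 were higher against both labels, and without 2208L replicate 1 the call of H2-T23 against T11 labelled H3B-8800 was lost. Of 14 class II genes, 10 were higher and none lower against T11 labelled vehicle, and 3 higher and none lower against T11 labelled H3B-8800. In the averaged comparison 11 were higher and none lower, with a median of 2.50. H2-Ab1 had 128, 70.7 and 60.6 CPM in 2208L vehicle, 1.49, 3.12 and 4.53 in T11 labelled vehicle and 14.2, 52.8 and 39.7 in T11 labelled H3B-8800. Its call against the second label (adjusted p = 0.0463) was lost without 2208L replicate 1 or 2 or without replicate 1 or 3 of that label. In this list, the higher count against T11 labelled H3B-8800 was 1 without 2208L replicate 1 or 2 or T11 labelled H3B-8800 replicate 1 or 3 and 5 without T11 labelled H3B-8800 replicate 2. Class I genes had a median log2 difference of 0.90 against T11 labelled vehicle and -0.18 against T11 labelled H3B-8800. Class II genes had one of 3.85 against T11 labelled vehicle and 0.50 against T11 labelled H3B-8800, or 3.02 and 0.50 with bounds.

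Of 45 interferon-stimulated genes, 20 were higher and 2 lower against T11 labelled vehicle, and 1 was higher and 6 lower against T11 labelled H3B-8800. The median log2 difference was 0.75 against T11 labelled vehicle and -0.33 against T11 labelled H3B-8800. Averaged, the list had 13 higher and 5 lower (median 0.33). By library, the lower count against T11 labelled vehicle was 5 without T11 labelled vehicle replicate 1. Beside T11 labelled H3B-8800 the lower count was 2 without T11 labelled H3B-8800 replicate 1. It was 15 with only the compared libraries fitted and also 15 with the replicate block. In those 2 settings 2636 and 2445 of 11936 genes were lower. Irf7, a master regulator of interferon production, had 96.9, 72.7 and 84.2 CPM in 2208L vehicle, 16.9, 26 and 31.5 in T11 labelled vehicle and 143, 82.01 and 72.99 in T11 labelled H3B-8800. The 2208L libraries overlapped with those of the second label for Irf7. T and natural killer cell genes were higher in 13 of 24 cases and lower in 2 against T11 labelled vehicle, and higher in 2 and lower in 4 against T11 labelled H3B-8800. Both labels averaged gave 4 higher and 3 lower (median 0.68). Single libraries carried much of this: the higher count against T11 labelled vehicle was 4 without both muscle-rich libraries together and 7 without 2208L replicate 1 or T11 labelled vehicle replicate 2. For T11 labelled H3B-8800 the lower count was 1 without 2208L replicate 3 and 2 without T11 labelled H3B-8800 replicate 2. Cd3e, a subunit of the T cell receptor complex, had 4.43, 2.02 and 1.81 CPM in 2208L vehicle, 0, 0 and 0.0719 in T11 labelled vehicle and 0.472, 14.3 and 0.415 in T11 labelled H3B-8800. The highest value was in replicate 2 of T11 labelled H3B-8800, the library rich in lymphocyte RNA. Ccl5, a chemokine of activated T cells, was lower against both labels, with 14.3, 6.97 and 6.94 CPM in 2208L vehicle, 41.3, 50.1 and 25.97 in T11 labelled vehicle and 78.5, 34.7 and 47.3 in T11 labelled H3B-8800. Of 16 B cell genes, none was higher and 1 lower against T11 labelled vehicle, while 8 were lower against T11 labelled H3B-8800. Averaging both labels gave 1 higher and 1 lower, with a median log2 difference of -0.60. In the B cell list, the lower count against T11 labelled H3B-8800 was 1 without T11 labelled H3B-8800 replicate 2, 2 without 2208L replicate 3, 3 without 2208L replicate 1 and 4 without 2208L replicate 2.

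More genes of the cell cycle were called lower than higher in 2208L. Of 45 genes of mitosis and proliferation, 4 were higher and 14 lower against T11 labelled vehicle, and 3 higher and 9 lower against T11 labelled H3B-8800. The lower share against T11 labelled H3B-8800 was close to the 18.5 percent of all genes. Against T11 labelled vehicle it was above the 22.5 percent of all genes. There the lower count was 9 with the replicate block and 8 at a fold of at least 1.5, where fewer of all genes were called too. In the averaged comparison 3 were higher and 22 lower, with a median of -0.39. On leaving out 1 library, the higher count against T11 labelled vehicle was 2 without 2208L replicate 1. Beside T11 labelled H3B-8800 the higher count was 1 without 2208L replicate 1 or T11 labelled H3B-8800 replicate 1 or 2 or 3. Myc, the growth factor-induced transcription factor, had 17.2, 11 and 11.7 CPM in 2208L vehicle, 155, 115 and 84.1 in T11 labelled vehicle and 97.1, 114 and 92.04 in T11 labelled H3B-8800, a log2 difference of -3.15 ± 0.28 and -2.93 ± 0.28. Cdkn2a, whose locus encodes p16 and p19Arf, had 69.4, 40.1 and 54.7 CPM in 2208L vehicle, 669.9, 297 and 269 in T11 labelled vehicle and 248, 193 and 240.3 in T11 labelled H3B-8800 (log2 difference -2.91 ± 0.44). Rb1, the pocket protein that p16 helps keep active, had 44.5, 70.4 and 81.3 CPM in 2208L vehicle, 10.8, 14.1 and 23.96 in T11 labelled vehicle and 14.2, 22.6 and 23.8 in T11 labelled H3B-8800 (log2 difference 2.00 ± 0.32). In each of these genes the 2 lines were apart in all 9 libraries. The D cyclin gene Ccnd2 was lower, with 1.61, 4.87 and 2.01 CPM in 2208L vehicle, 8.47, 19.5 and 22.2 in T11 labelled vehicle and 17.1, 21.9 and 18.2 in T11 labelled H3B-8800. Top2a, Pcna and Cdk4 were not called against either label.

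The p53 list was split as well, with 8 of 29 genes higher and 6 lower against T11 labelled vehicle. Against T11 labelled H3B-8800 5 were higher and 5 lower. These shares were close to those of all genes (23.1 and 22.5 percent, and 20.2 and 18.5 percent). Averaged, the list had 7 higher and 4 lower (median 0.16). Leaving out libraries 1 at a time, the higher count against T11 labelled H3B-8800 was 3 without 2208L replicate 1 or T11 labelled H3B-8800 replicate 2 and the lower count against T11 labelled H3B-8800 was 2 without 2208L replicate 3. Trp53 itself had 108, 114 and 128 CPM in 2208L vehicle, 65.7, 73.2 and 104 in T11 labelled vehicle and 112, 140.2 and 115 in T11 labelled H3B-8800. Its call against T11 labelled vehicle (adjusted p = 0.0108) was lost without 2208L replicate 3 or without replicate 1 or 2 of that label, and it was not called against T11 labelled H3B-8800 (adjusted p = 0.760). Spliced reads were present at all 9 Trp53 introns in every library of both lines, and a read counts at each intron it spans. Over introns 2 to 6 the range of counts was 9.95, 8.92 and 6.47 percent of their mean in 2208L vehicle. It was 12.1, 17.1 and 8.78 percent in T11 labelled vehicle and 11.6, 8.98 and 10.4 percent in T11 labelled H3B-8800. Over all 9 introns the counts were less even. They ran from 103 to 146, 119 to 186 and 121 to 170 reads in the 2208L vehicle libraries. In T11 labelled vehicle they ran from 39 to 110, 112 to 185 and 143 to 193. In T11 labelled H3B-8800 they ran from 132 to 196, 274 to 383 and 237 to 338. What these counts mean for the tumor genotype was not tested. Mdm2, Bax and Ccng1, targets of p53, were not called against either label.

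Hypoxia and glycolysis genes had no common direction against either label alone, and the averaged comparison called more lower. Against single labels, 5 of 36 were higher and 6 lower against T11 labelled vehicle, and 6 higher and 5 lower against T11 labelled H3B-8800. Both labels averaged, with the 2208L libraries labelled H3B-8800 included, gave 2 higher and 16 lower (median -0.43). In this list the higher count against T11 labelled vehicle was 2 without 2208L replicate 3 or T11 labelled vehicle replicate 3, 3 without T11 labelled vehicle replicate 2 and 9 without 2208L replicate 1 or T11 labelled vehicle replicate 1. With T11 labelled H3B-8800 the higher count was 3 without 2208L replicate 3 and the lower count was 8 without 2208L replicate 3 and 9 without T11 labelled H3B-8800 replicate 2. Aldoc, an aldolase isoform, had 498, 390.2 and 643 CPM in 2208L vehicle, 12.4, 11.2 and 10.2 in T11 labelled vehicle and 10.8, 4.79 and 17.8 in T11 labelled H3B-8800 (log2 difference 5.51 ± 0.69). Slc16a3, the lactate exporter, was lower, with 5.34, 11.4 and 5.43 CPM in 2208L vehicle, 125, 81.01 and 40 in T11 labelled vehicle and 104, 37.9 and 97.2 in T11 labelled H3B-8800. Aldoc and Slc16a3 each separated the lines, in opposite directions. Car9, a carbonic anhydrase induced by hypoxia, had 1.71, 3.95 and 3.02 CPM in 2208L vehicle, 58.8, 23.6 and 12.9 in T11 labelled vehicle and 52.3, 11.8 and 41.4 in T11 labelled H3B-8800. The 6 T11 libraries spread widely for Car9, and all lay above the 2208L libraries. Eno1, Ldha and Pgk1 were not called against either label.

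Genes of the SF3B complex and SR proteins also depended on the label. Against T11 labelled vehicle 17 of 27 were lower and 1 higher, with a median log2 difference of -0.60, and against T11 labelled H3B-8800 4 were lower and 3 higher, with a median of -0.06. Averaging both labels gave 3 higher and 13 lower, with a median log2 difference of -0.22. In the SF3B list the higher count against T11 labelled vehicle was 3 without T11 labelled vehicle replicate 1. Luc7l3, a splicing factor of the U1 particle, was among 26 genes called in opposite directions against the 2 labels. It had 190.2, 178 and 180.5 CPM in 2208L vehicle, 341, 291 and 306 in T11 labelled vehicle and 108, 122 and 109 in T11 labelled H3B-8800. Zfp207, a mitotic and RNA-binding zinc finger protein, had 167, 156 and 164 CPM in 2208L vehicle, 252.2, 321 and 327 in T11 labelled vehicle and 113, 110.4 and 122 in T11 labelled H3B-8800. In both genes the 2208L libraries lay between the 2 T11 labels. The class I gene H2-Q1 stood the other way round, with 125, 76.1 and 119 CPM in 2208L vehicle, 28.04, 22.6 and 43.2 in T11 labelled vehicle and 177, 177 and 407 in T11 labelled H3B-8800. Its call against the second label (adjusted p = 0.0347) was lost without any 1 of the 2208L libraries or replicate 3 of that label. H2-Q genes have near-identical copies, so their reads may be split between them. The 2 T11 labels themselves differed at 1525 of the 13001 genes.

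Intronic reads relative to a gene's spliced reads showed the label dependence most. Of 52042 introns tested in 9859 genes, 444 were higher (0.853 percent) and 14971 lower (28.8 percent) in 2208L vehicle than in T11 labelled vehicle, with a median log2 difference of -1.23. Against T11 labelled H3B-8800, 59 were higher (0.113 percent) and 80 lower (0.154 percent), with a median of -0.34. Against both labels 37 introns were higher (0.0711 percent) and 63 lower (0.121 percent). Among the 30051 introns that hold no annotated exon, 9059 were called against T11 labelled vehicle (30.1 percent, close to the 29.6 percent of all introns) and 34 against T11 labelled H3B-8800 (0.113 percent, against 0.267 percent of all introns). The 15415 calls against T11 labelled vehicle were 9371 without 2208L replicate 1 and 8605 without T11 labelled vehicle replicate 2. The 139 calls against T11 labelled H3B-8800 were 46 without 2208L replicate 1, 50 without 2208L replicate 3, and 60, 65 and 46 without replicates 1, 2 and 3 of that label. Rnf41 intron 6 (chr10:128437412-128438082, mm10) had 0, 0 and 0 intronic reads in 2208L vehicle, 76, 268 and 188 in T11 labelled vehicle and 0, 0 and 0 in T11 labelled H3B-8800. Zeb1 intron 7 had 0, 0 and 0 intronic reads in 2208L vehicle, 68, 805 and 401 in T11 labelled vehicle and 7, 18 and 15 in T11 labelled H3B-8800. Both introns were free of intronic reads in 2208L and held many in T11 labelled vehicle, while T11 labelled H3B-8800 had none at the first and fewer at the second. In 2208L vehicle 42, 42 and 36 spliced reads crossed Rnf41 intron 6, and only 8, 9 and 3 crossed Zeb1 intron 7. The absence of intronic reads at the Zeb1 intron thus rests on few reads of the gene.

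Among the introns that were higher in 2208L against both labels, Dgkd intron 7 (chr1:87916933-87917891) in a diacylglycerol kinase gene had 106, 173 and 195 intronic reads in 2208L vehicle, 0, 0 and 2 in T11 labelled vehicle and 0, 0 and 0 in T11 labelled H3B-8800. The spliced reads over the same intron were 31, 57 and 37 in 2208L vehicle, 10, 30 and 28 in T11 labelled vehicle and 38, 66 and 67 in T11 labelled H3B-8800, so the gene was read in both lines. Zc3h7a intron 4 (chr16:11159125-11161003) had 37, 31 and 43 intronic reads in 2208L vehicle, 0, 0 and 0 in T11 labelled vehicle and 0, 2 and 0 in T11 labelled H3B-8800. Neither intron holds an annotated exon. The change at Trf intron 16 rested on few reads in T11: the intron had 939, 1608 and 1766 intronic reads in 2208L vehicle and none in T11 labelled vehicle, where only 13, 26 and 44 spliced reads crossed it. Its call against T11 labelled vehicle was lost without replicate 2 or 3 of that label. T11 labelled H3B-8800 had 0, 6 and 2 intronic reads at this Trf intron, which was not called against that label (adjusted p = 0.748). Of the introns lower against both labels, several belong to epithelial genes and were crossed by few spliced reads in T11, among them introns of Rab25, Muc1, Pkp3, Krt7 and Cxadr. In Rab25 intron 1, 2208L vehicle had 11, 22 and 14 intronic and 167, 168 and 186 spliced reads, and T11 labelled vehicle had 0, 2 and 0 intronic and 0, 0 and 0 spliced reads.

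**Figure D5:**
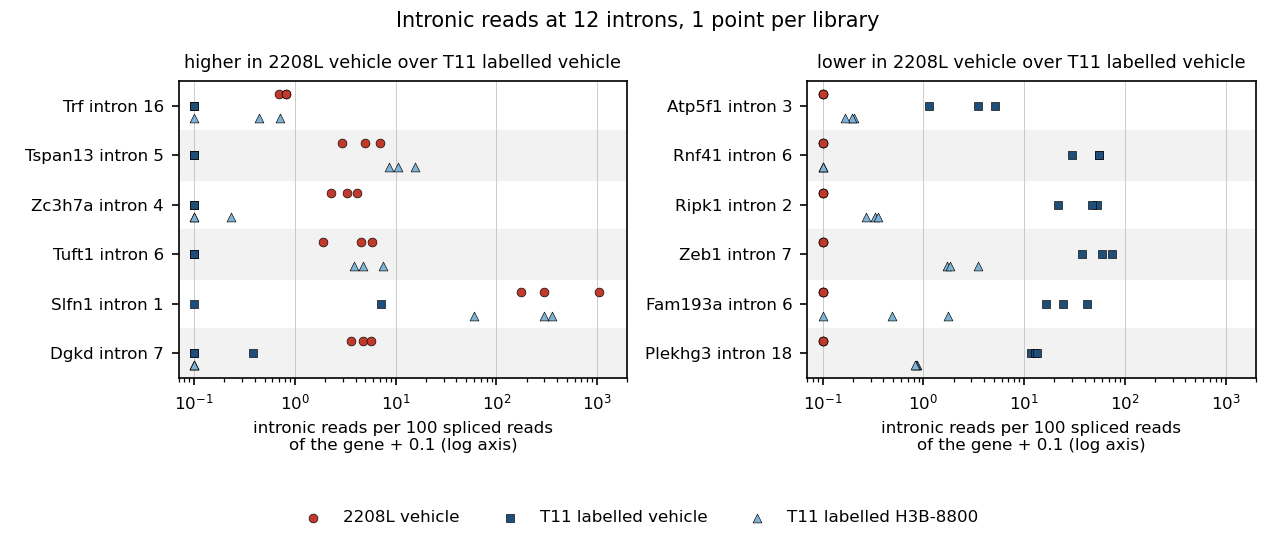
Intronic reads per 100 spliced reads of the gene, plus 0.1 on a log axis, at the 6 introns with the largest fitted change in each direction against T11 labelled vehicle, 1 point per library. In the right panel the squares of T11 labelled vehicle stand apart, with 76, 268 and 188 intronic reads at Rnf41 intron 6. The triangles of T11 labelled H3B-8800 lie below all squares. They lie at the 2208L circles for Rnf41 intron 6 and above them for Zeb1 intron 7, where that difference was not called.

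Genes with large changes were taken by a rule that asks for a call in the same direction against both labels and in their average and for no overlap between the 2208L vehicle and any T11 library. By it 1565 genes were candidates in the higher and 1432 in the lower direction. Fam150b, a ligand of the ALK receptors, had 819, 537 and 747 CPM in 2208L vehicle and no read in T11 labelled vehicle, at least 8901-fold higher against the floor of 3 reads, and 2 reads in T11 labelled H3B-8800 together. Atp6v1c2, a subunit of the vacuolar proton pump, had 836, 604 and 591 CPM in 2208L vehicle and no read in T11 labelled vehicle. Fxyd3, a regulator of the sodium pump in epithelium, had 2761, 1873 and 2456 CPM in 2208L vehicle and 0.458, 0.125 and 0 in T11 labelled vehicle. Wfdc18, a secreted protein with a whey acidic protein domain, had 5131, 3310.2 and 4972 CPM in 2208L vehicle and 0, 0 and 0.288 in T11 labelled vehicle. The cartilage collagen gene Col9a1 had 863, 1219.5 and 1839 CPM in 2208L vehicle and 0, 0 and 0.144 in T11 labelled vehicle. These 5 genes were near 0 in all 3 libraries of that label. In the lower direction, Nptx1, a neuronal pentraxin, had no read in 2208L vehicle and 49.1, 45.3 and 28.4 CPM in T11 labelled vehicle, at least 425-fold lower against the floor of 3 reads over the 2208L libraries. Crabp1, a retinoic acid binding protein, had 0, 0.252 and 0.201 CPM in 2208L vehicle, 215, 81.8 and 134 in T11 labelled vehicle and 102, 66.7 and 80.7 in T11 labelled H3B-8800 (log2 difference -9.75 ± 0.63). Glp1r, the receptor of an incretin hormone, had 0.202, 0.588 and 0 CPM in 2208L vehicle, 112, 182 and 123 in T11 labelled vehicle and 181, 129 and 187 in T11 labelled H3B-8800. Crabp1 and Glp1r were near 0 in every 2208L library. Ptprq, a receptor phosphatase, had 2 reads in 2208L vehicle together, against 53.2, 79.8 and 97.1 CPM in T11 labelled vehicle and 49.4, 54.2 and 59.6 CPM in T11 labelled H3B-8800.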

How the data were processed

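Each of the 25 libraries is 1 whole tumor, and its deposited table gives 2 raw read counts for each intron of 17591 genes, the reads inside it and all reads that overlap it. Reads were aligned with HISAT2 2.0.4, and the builds mm10 and hg38 are named, per the submitters' processing notes. Polyadenylated RNA was read with strand-specific libraries, per the labels. No label or header names the counting tool or says whether it used strand (not given in the sources used here), so overlapping and antisense genes may share reads. Nothing in the deposited counts was normalized. Spliced reads are the overlapping minus the inside reads, summed over a gene's introns, so a read that spans 2 introns counts at both.

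CPM is a gene's spliced reads per 1000000 spliced reads of its library. Genes with at least 1 CPM in at least 2 of the 25 libraries were tested (13001), with all 25 libraries in 8 group means so that they share 1 estimate of spread, by the robust, 2-sided quasi-likelihood test of edgeR 4.0.16 with TMM scaling in R 4.3.3 and Benjamini-Hochberg adjustment over all genes tested, at 0.05. The CPM values given are divided by TMM-scaled library sizes, while the filter used unscaled ones. For introns, where the mean over libraries had to reach 5 reads inside and 10 spliced, the same model was fitted to the reads inside, and its offset was the logarithm of spliced reads per gene after adding 0.5. A fold against a group without reads is a lower bound at 3 reads over its 3 libraries together, and covers counting error only. Tests were checked on simulated data: in the comparison with T11 labelled vehicle, 39 percent of 2-fold and 68 percent of 4-fold changes over 13001 genes were recovered, and none and 47 percent over 52042 introns. The simulation changed a far smaller share of genes or introns than was called in the data. For introns it took an assumed spread and no common shift. The recovered shares therefore do not give the power of the tests reported here. Figures were drawn with matplotlib 3.10.9.

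The gene lists and the rule for named genes were chosen with earlier results of these data known. The rule took up to 12 genes a direction with the largest change, called against both labels and in their average, without overlap and with a mean of at least 5 CPM; up to 6 tested members of each list with the smallest p and up to 3 uncalled members with the highest mean; a set of identity genes; up to 5 genes a direction called in opposite directions against the 2 labels; and up to 6 introns a direction without an annotated exon and with a mean of at least 20 intronic reads in the higher group. Areg, Axl, Btc, Clec4d, Col17a1, Crb3, Ereg, Hbegf, Hgf, Hoxc9, Il1r1, Itgb3, Lsr, Meis3, Nt5e, Ptgs2, Spp1 and the introns of epithelial genes were named after their values were seen. Promoters are RefSeq's, for GRCm38.p6. Alternatives included DESeq2 1.42.0, other scaling, filters and gene counts, the replicate number as a block, and leaving out each library.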

Additional observations from a re-analysis of the deposited data

How the results depend on the processing

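The 5929 genes called in 2208L vehicle against T11 labelled vehicle became 3720 with only the compared libraries fitted, 3552 when a fold of at least 1.5 was tested with glmTreat, and 3372 with the replicate block. Against T11 labelled H3B-8800 (5034) the replicate block gave 5105, and with both labels averaged (6872) it gave 6393. Leaving out 1 library gave 5104 to 6138, 4075 to 4801 and 6429 to 7122 calls in these 3 comparisons. Without both muscle-rich libraries, an alternative chosen after seeing the data, 5094 genes were called against T11 labelled vehicle. Against T11 labelled vehicle (15415) they numbered 9059 of the 30051 introns without an annotated exon (30.1 percent, against 29.6 percent of all introns), 11978 with the replicate block, and 8605 to 17665 on leaving out 1 library. Against T11 labelled H3B-8800 (139) they numbered 34 of those 30051 (0.113 percent, against 0.267 percent), 974 with only the compared libraries, 1753 with the replicate block, and 46 to 134 on leaving out 1 library. The cause was not tested.

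Replicate numbers are shared between the groups, but same-numbered libraries did not deviate together: correlations of deviations were -0.08, 0.22 and -0.38 for 2208L vehicle with T11 labelled vehicle, and -0.22, -0.01 and 0.28 with T11 labelled H3B-8800, so the numbers were not taken as pairs, and not every library correlated best with its own number. Directions were compared only for values called in the main or the alternative fit. Among these they turned for 2 muscle genes without T11 labelled vehicle replicate 3. They also turned for a B cell gene without T11 labelled H3B-8800 replicate 2. On leaving out 1 library, the log2 difference ran from -4.34 to 5.42 for Des and from -5.62 to 4.02 for Ryr1 against T11 labelled vehicle, and from -4.42 to 0.17 for Cd79b against T11 labelled H3B-8800. Col17a1 had a log2 difference of 0 when the median over a gene's introns replaced the sum. Of the other values of named genes under the alternatives, 313 lost the call and 130 gained it. The remaining 8749 kept call and direction or were uncalled in both fits, where direction was not compared. No scaling moved the share of higher calls by over 10 percentage points. With 3 tumors a group, a gene that was not called may still differ.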
